A study of Drosophila melanogaster with 2 samples.

Results

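The genes that encode the insulator proteins of the fly were examined for binding of CG34376, a protein expressed from a transgene as a C-terminal green fluorescent protein fusion. The 10 genes were taken from a fixed list: su(Hw), CTCF, mod(mdg4), Cp190, BEAF-32, pita, ZIPIC, Ibf1, Ibf2 and Chro. All 10 were found among the 17683 annotated genes of Ensembl release 115 on the arms that the peak lists cover. Every peak summit inside a listed gene, or within 2 kb of any of its transcription starts, was assigned to it.

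The data are peak lists from chromatin immunoprecipitation of whole Drosophila melanogaster embryos of strain CG34376-GFP, with males and females pooled and ages from 0 to 24 h. There are 2 libraries, biological replicates 2 and 3, in 1 group, so no comparison between conditions was possible. The labels contradict each other, since a description line speaks of an input control while the assay and antibody fields describe the immunoprecipitate, and the libraries were treated as immunoprecipitates. Both come from 1 stable line that carries the tagged transgene, they share 1 control, and the labels do not say what drives the transgene. Embryos of these ages hold many cell types, so a weak peak in all cells and a strong peak in few cells cannot be told apart. Peak lists hold no marker levels, so the tissue label was not checked against them.

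Insulators are DNA elements that block contact between an enhancer and a promoter or stop the spread of a chromatin state, and they often lie at the borders of chromatin domains. In the fly their proteins fall into factors that read DNA and cofactors that these recruit. The zinc finger proteins su(Hw), CTCF, pita and ZIPIC and the BED finger proteins BEAF-32, Ibf1 and Ibf2 bind DNA. Cp190 and mod(mdg4), which carry BTB domains, and the chromodomain protein Chro join the bound factors.

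The promoters of 5 of the 10 genes were called bound by CG34376, and the levels were far apart. The call for su(Hw) was not made with either library alone. The promoters of Chro and Cp190 were among the strongest of all bound genes, that of CTCF lay in the upper part of the range, and those of BEAF-32 and su(Hw) lay below the median. No thresholded summit lay at the annotated starts of mod(mdg4), pita, ZIPIC, Ibf1 or Ibf2. Within mod(mdg4), however, a strong summit lay at an internal promoter. A promoter is called bound here when a summit of the authors' thresholded list lies within 500 bp of any start of the gene. By this rule 26.1% of all annotated genes and 30.1% of the 13945 protein-coding genes were called bound. Among the 9570 genes with any pooled candidate summit that close to a start, 48.2% were called bound. Of the 10 insulator genes 9 had such a candidate, and 5 of these 9 (55.6%) were called bound. The 5 of 10 is thus above the share of all genes and of protein-coding genes, and the 5 of 9 stands beside 48.2%. No test of the list was made, and with so few genes nothing particular to it can be read from these shares.

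Counted over gene bodies and 2 kb around the starts, 8 of the 10 genes held a thresholded summit, against 38.0% of all genes and 41.2% of protein-coding genes. Of these 8, pita and Ibf1 counted only through summits at the starts of Rrp4 and ATP6AP2, and with a flank of 1 kb 6 genes were left. No test was made, and nothing particular to the list can be read from these shares. The 10 genes held 16 thresholded summits of the 7025 in the list, and 24 further summits that were candidates in the pooled list only. Of the 16, 7 lay within 500 bp of a start of the listed gene, 6 within 500 bp of a start of another gene only, 2 in coding exons and 1 in an intron. The promoter share was 81.25% (95% Wilson interval 56.99% to 93.41%, counting error only), against 63.1% of the 6818 thresholded summits in or near any gene. Summits at 1 gene are not independent of each other. The signal, which is the authors' own value per peak, ran from 176.6 to 1491 over the 16 summits with a median of 297.4. Over the whole thresholded list it ran from 162.9 to 3316 with a median of 251.6.

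The sequences given here lie at or beside summits of Cp190, CTCF and mod(mdg4), at promoters except for the stretch in a mod(mdg4) intron. They were read from the Release 6 assembly, which is build dm6, without untranslated exons and on the strand of the gene. Capitals mark 4 motifs, on either strand. The GATA site, which GATA factors read, is GATA with A or T before it and A or G after it. BEAF-32 is known to read the motif CGATA. The DRE, read by the product of Dref, is TATCGATA and thus holds the motif of BEAF-32. GAGA factor reads repeats such as GAGAG. Cp190 is shown as 201 bases around its summit, chr3R:15275274-15275474. CTCF is shown as the 300 bases upstream of its start, chr3L:7356714-7357013, which hold its summit of signal 296.0 but not the stronger one of 448.0, just inside the gene. For mod(mdg4) the stretch between the divergent internal starts, chr3R:21365489-21365608, is given. It does not hold the summit, which lies beyond its last printed base. Also given are 201 bases around the summit in the first part of the gene, chr3R:21376383-21376583.
Cp190 promoter: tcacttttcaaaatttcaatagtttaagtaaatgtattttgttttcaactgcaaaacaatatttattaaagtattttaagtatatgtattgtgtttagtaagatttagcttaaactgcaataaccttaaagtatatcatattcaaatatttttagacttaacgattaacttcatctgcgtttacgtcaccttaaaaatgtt
CTCF upstream: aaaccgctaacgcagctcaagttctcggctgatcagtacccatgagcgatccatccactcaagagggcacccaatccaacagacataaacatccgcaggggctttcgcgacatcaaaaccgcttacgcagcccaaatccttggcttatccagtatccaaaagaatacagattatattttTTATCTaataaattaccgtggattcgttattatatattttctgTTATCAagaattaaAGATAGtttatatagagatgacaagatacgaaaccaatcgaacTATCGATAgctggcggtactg
mod(mdg4) internal promoter: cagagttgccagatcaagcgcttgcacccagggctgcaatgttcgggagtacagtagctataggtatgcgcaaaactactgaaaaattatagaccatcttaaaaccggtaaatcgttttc
mod(mdg4) intron: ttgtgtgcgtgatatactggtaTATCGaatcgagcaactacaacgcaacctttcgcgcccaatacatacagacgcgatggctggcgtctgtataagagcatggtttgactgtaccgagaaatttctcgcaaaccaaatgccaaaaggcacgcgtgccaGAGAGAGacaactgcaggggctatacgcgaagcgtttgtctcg

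The Cp190 stretch is rich in A and T and holds none of the 4 motifs. The CTCF stretch holds 3 GATA sites, 1 DRE and 2 CGATA matches, both within the DRE, which reads CGATA on both strands. The stretch between the internal starts of mod(mdg4) holds none of them, and the intronic stretch holds 1 CGATA and 2 overlapping matches to GAGAG.

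**Figure D1:**
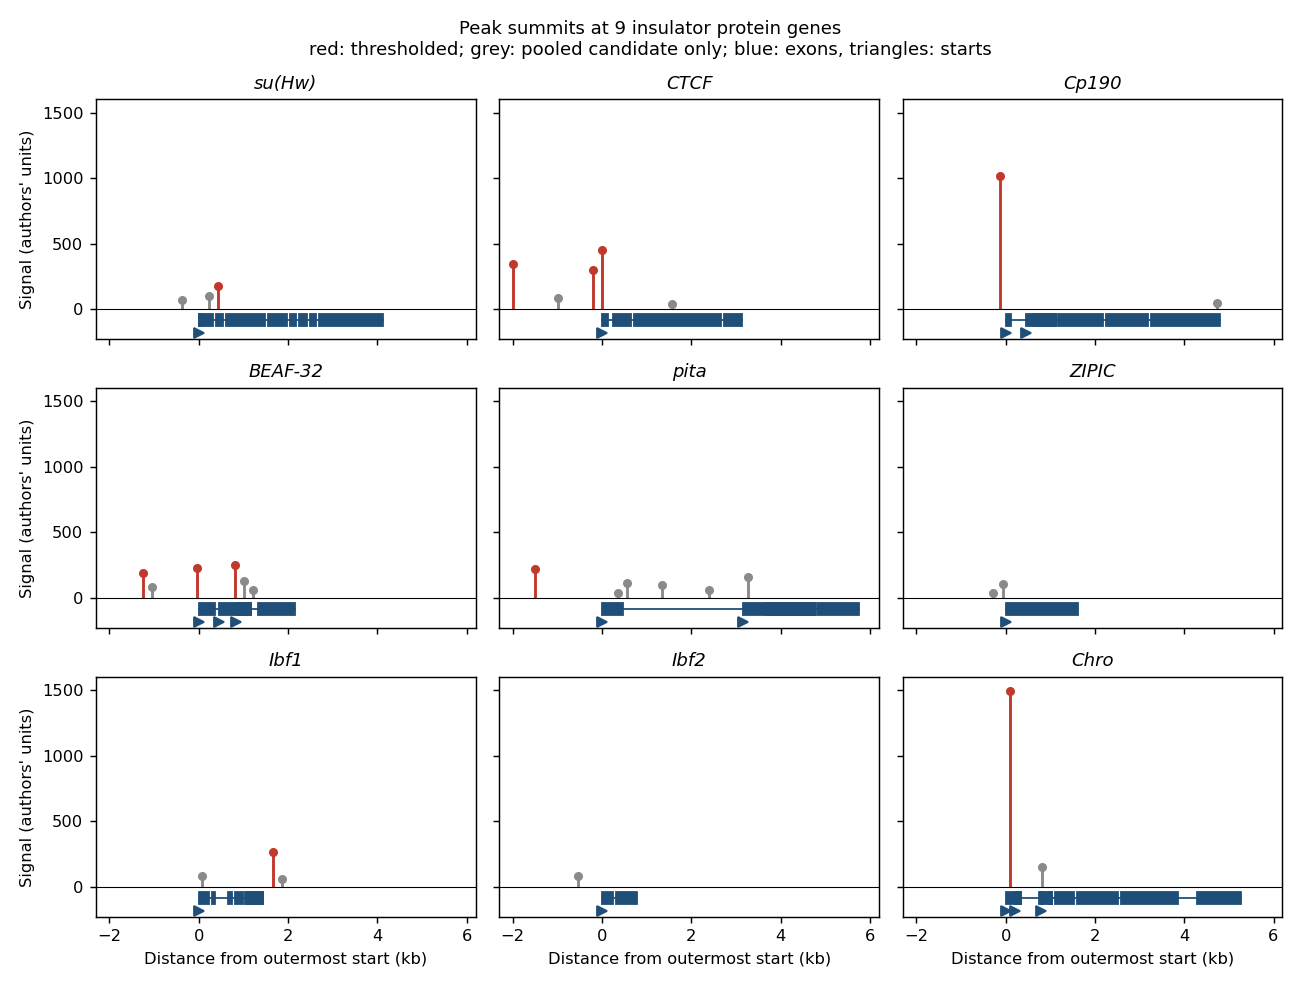
Signal of each peak summit (vertical axis, authors' units) against its distance from the outermost start of the gene (horizontal axis, kb, positive into the gene) for 9 of the 10 genes. Red points are thresholded summits, grey points are pooled candidates only, blue boxes are exons and triangles are starts; Chro (1491) and Cp190 (1016) stand above the other 7 genes.

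Among the cofactors, Chro carried the strongest peak of the list of genes. Chro (FBgn0044324), which encodes a chromodomain protein of interbands and of domain borders, spans 22873702 to 22878984 on the minus strand of 3L and has 3 starts. Its peak covered 22878696 to 22879124, with the summit at 22878888 in the 5' untranslated region, 96 bp downstream of the outermost start. The signal was 1491 in the pooled list, 795.1 in replicate 2 and 699.4 in replicate 3, and the peak ranked 32, 29 and 30 in these lists. The ranks were nearly the same in both libraries, and 25 of the 4191 bound protein-coding genes had a higher promoter signal. The same summit lay 201 bp upstream of a start of Ssl1, a divergent gene that encodes a subunit of the general transcription factor TFIIH, so the peak counts for both genes. A second Chro candidate, 20 bp from the innermost start, had a signal of 147.6 and rank 7975, outside the thresholded list, and ranks of 8660 and 8319 in replicates 2 and 3. Genes that share the Chro peak were left out of the next comparison. The other bound genes nearest to Chro in rank over the pooled list and both replicates were CG1888 (ranks 33, 32 and 32) and CG13390 and CG17294, which share 1 peak (ranks 30, 26 and 35).

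The Cp190 promoter came next. Cp190 (FBgn0000283), whose product is a cofactor shared by most classes of fly insulator, spans 15270432 to 15275241 on the minus strand of 3R. Its peak covered 15275141 to 15275588, with the summit 133 bp upstream of the outer start. The signal was 1016 in the pooled list, 547.3 in replicate 2 and 466.2 in replicate 3, with ranks of 127, 124 and 122. Both libraries thus placed it alike, and 124 bound protein-coding genes were higher. The summit lay between Cp190 and CG4338, a divergent gene whose start is 148 bp away. The call belongs to the outer start alone, since the inner start, which the annotation marks as canonical, is more than 500 bp from the summit. Of the 201 bases around this summit 22.89% were G or C, and 0.185% of all thresholded windows were lower. The median window had 41.79%.

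The locus of mod(mdg4) held the most summits of the 10 genes, with 5 thresholded, and it is also the longest at 26556 bp. Of the other protein-coding genes 268 held as many or more. Its gene encodes a BTB protein family, one isoform of which is the partner of su(Hw) at the gypsy insulator, and its messages are joined by trans-splicing of a common 5' part to alternative 3' exons made from separate precursor transcripts of both strands. Ensembl gives mod(mdg4) (FBgn0002781) as 21350846 to 21377401 on the minus strand of 3R, with 22 transcripts from 1 start that share 4 exons, and lists the precursors as 23 genes named pre-mod(mdg4). The RefSeq table ends the gene at 21370101. With the RefSeq span the summit at 21365447 is no longer assigned to the gene, and the members' 16 thresholded summits become 15.

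The strongest summit of mod(mdg4) lay far from its common start, at 21365447, which is 11954 bp into the gene. The signal was 936.7 in the pooled list, 455.9 in replicate 2 and 480.5 in replicate 3, with ranks of 156, 208 and 111. It is high in both libraries. The summit lies 41 bp inside pre-mod(mdg4)-E on the minus strand, 157 bp upstream of a start shared by pre-mod(mdg4)-C, AB and E, and 162 bp upstream of the plus-strand start shared by 7 precursors, pre-mod(mdg4)-U, V, W, X, Y, AD and AE. A second internal start, that of pre-mod(mdg4)-AA, N and O, had a summit 20 bp upstream with a signal of 298.9 (rank 2503), 134.3 in replicate 2 and 155.1 in replicate 3. In all, 13 of the 23 precursor genes were called bound by the 500 bp rule, beside 26.1% of all genes. These precursors share starts or lie close together, and all 13 calls come from the summit at 21365447 and the one of signal 298.9. The count of 13 is thus not one of separate peaks. The start shared by 8 precursors at 21359768 and the divergent start of pre-mod(mdg4)-T and Z at 21360176 had candidates of up to 85.83 only.

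The common start of mod(mdg4) itself had a candidate 57 bp downstream, with a signal of 133.0 and rank 9018, below the thresholded list. In replicates 2 and 3 it ranked 7476 and 9975, outside the first 7025 in each. Thresholded summits lay further in, at 918 bp and 714 bp from the start. The first, in an intron, had a signal of 472.6, 251.4 in replicate 2 and 212.4 in replicate 3, with ranks of 906, 976 and 993. The second, in a coding exon, had a signal of 176.6, close to the lowest value of the list, and ranked 8671 in replicate 2 and 18270 in replicate 3. It is the only one of the 16 summits that was outside the first 7025 of both libraries. A summit 1376 bp upstream of the start (signal 452.7; ranks 1010, 911 and 1218) lay 200 bp upstream of tin, which encodes a homeodomain factor of heart development, and is assigned to mod(mdg4) by distance only.

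**Figure D2:**
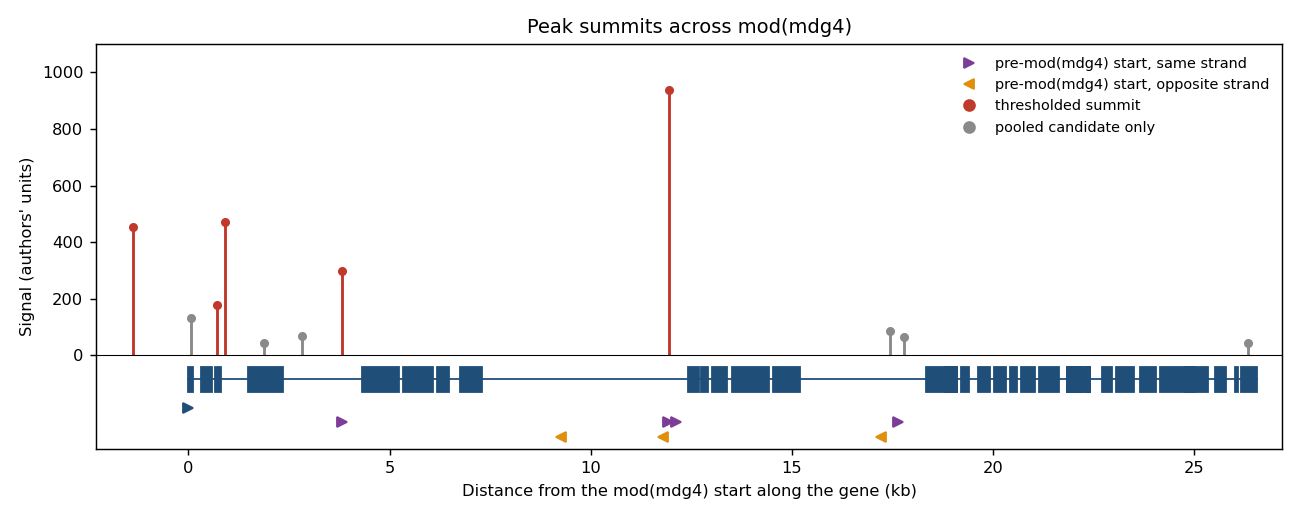
Signal of each summit (vertical axis, authors' units) along mod(mdg4) (horizontal axis, kb from the common start, positive into the gene), with exons in blue and the starts of the pre-mod(mdg4) precursors as triangles by strand. The highest point, 936.7, stands at the divergent internal starts, while the common start has only a candidate of 133.0.

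Among the zinc finger genes, CTCF and su(Hw) had bound promoters and pita and ZIPIC did not. CTCF (FBgn0035769), the fly counterpart of the vertebrate insulator protein of that name, spans 7353578 to 7356713 on the minus strand of 3L and had 2 summits at its single start. The one 6 bp downstream had a signal of 448.0 in the pooled list, 159.8 in replicate 2 and 277.3 in replicate 3, with ranks of 1044, 2589 and 508. Replicate 3 thus ranked it much higher than replicate 2. The one 197 bp upstream had a signal of 296.0 and ranks of 2558, 3615 and 3553, alike in both libraries. A further summit, 1996 bp upstream, lay in a coding exon of pst, with a signal of 341.1 and ranks of 1908, 1353 and 3090.

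The su(Hw) gene (FBgn0003567), whose product binds the gypsy insulator, spans 14304455 to 14308589 on the minus strand of 3R. Its only thresholded summit lay 438 bp downstream of the start, in the 5' untranslated region, with a signal of 178.4 in the pooled list, 85.24 in replicate 2 and 96.65 in replicate 3. The ranks were 6158, 7407 and 5136, and 3739 of the bound protein-coding genes had a higher promoter signal. The call rests on the pooled list. In replicate 2 the peak fell outside the first 7025 candidates, and in replicate 3 its summit lay 501 bp from the start, so neither library alone called the promoter bound. Closer to the start, a candidate 239 bp downstream had a signal of 100.3. Another, 377 bp upstream and nearer to a start of Polr2I, an RNA polymerase subunit gene, had 71.57, and neither was in the thresholded list.

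The pita gene (FBgn0034878), on 2R at 23548967 to 23554712, encodes a zinc finger protein that recruits Cp190. It had 5 candidates in its body and none in the thresholded list. The strongest, 100 bp downstream of the inner start, had a signal of 156.2 and rank 7416, just below the list, and it lay within 500 bp of a start of Dcp-1, a caspase gene that overlaps pita, as well. Replicate 2 ranked it 6676, within the first 7025. Replicate 3 had no candidate within 100 bp. Its nearest one, just outside that distance at an offset of -102 bp along the chromosome, ranked 8315. The only thresholded summit assigned to pita lay 1504 bp upstream of its outer start and 1 bp from the start of Rrp4, an exosome subunit gene, and 456 bp upstream of ItgaPS5, a divergent integrin alpha subunit gene, with a signal of 224.0 and ranks of 4321, 3359 and 6635. ZIPIC (FBgn0039740), on 3R at 30035240 to 30036870, encodes another zinc finger partner of Cp190. It had a candidate 67 bp upstream of its start with a signal of 105.4, ranked 11653 in the pooled list, 10949 in replicate 2 and 13928 in replicate 3. The thresholded summit nearest to its start was 6466 bp away.

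Among the BED finger genes only BEAF-32 was called bound. BEAF-32 (FBgn0015602), whose product binds CGATA repeats at domain borders next to active genes, is a plus-strand gene with 3 starts, at 14770469 to 14772630 of 2R. A narrow peak of 141 bp had its summit 38 bp upstream of the outermost start, with a signal of 228.7 in the pooled list, 103.0 in replicate 2 and 129.2 in replicate 3, and ranks of 4157, 5606 and 3059. A second summit lay 13 bp upstream of the innermost start, with a signal of 250.0, 115.3 in replicate 2 and 113.7 in replicate 3, and ranks of 3542, 4683 and 3888. Both were within the first 7025 of each library. The antisense RNA asRNA:CR42254 has starts within 500 bp of each. The start nearest to the second summit is that of this RNA, 7 bp away, and peaks carry no strand. A further summit, at Spred, 1246 bp upstream, had a signal of 186.6 and ranks of 5752, 9611 and 4350.

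Ibf1 (FBgn0037670) and Ibf2 (FBgn0037669) lie head to head on 3R, at 9258964 to 9260400 and 9257727 to 9258501, and their products bind Cp190 as a complex. They share 1 candidate, 78 bp downstream of the Ibf1 start and 541 bp from that of Ibf2, with a signal of 84.90 and ranks of 14510, 16258 and 14609. This candidate ranked low in both libraries. The thresholded summit assigned to Ibf1 lay beyond its 3' end, 7 bp upstream of the start of ATP6AP2, which encodes an accessory protein of the vacuolar ATPase. It had a signal of 264.1 and ranks of 3218, 2828 and 3334. Ibf2 had no thresholded summit, the nearest being 2130 bp from its start.

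**Figure D3:**
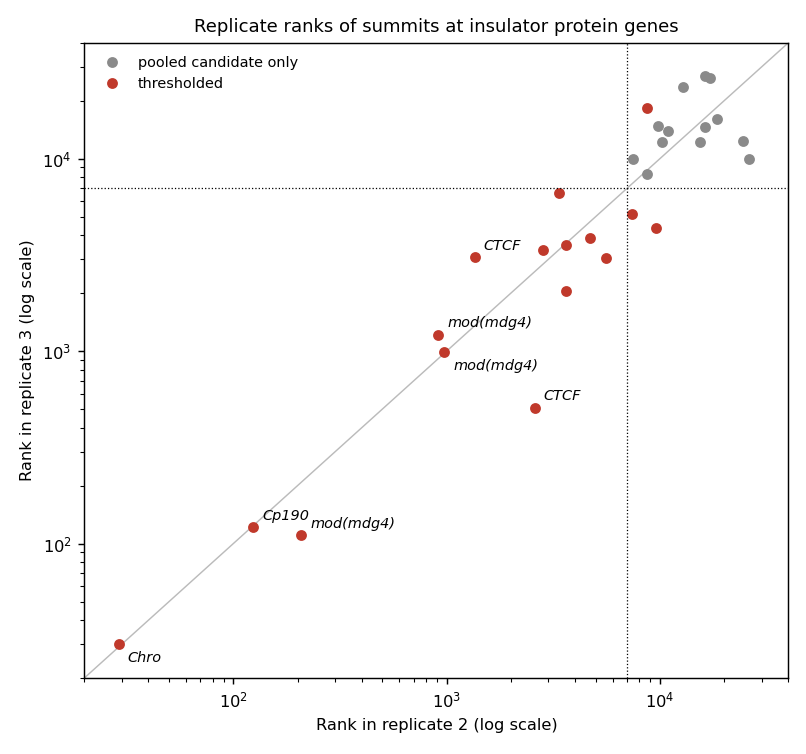
Rank in replicate 2 against rank in replicate 3, both on log scales, for the 29 of 40 summits at the 10 genes that had a candidate within 100 bp in both libraries; red points are thresholded summits, grey points pooled candidates only, and dotted lines mark rank 7025. Chro, Cp190 and the strongest mod(mdg4) summit lie toward the strong end of both axes. Chro and Cp190 are close to the diagonal, and the mod(mdg4) summit, ranked 208 in replicate 2 and 111 in replicate 3, is further from it.

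Set against each other, the replicates placed 13 of the 16 thresholded summits within the first 7025 candidates of both, 2 within those of 1 library and 1 within those of neither. The thresholded list was made from these same replicates, so this is a description and not an independent test. Of all 40 summits, 7 had no candidate within 100 bp in replicate 2 and 7 had none in replicate 3. The same shares over the whole thresholded and pooled lists are not given here. Whether these counts are usual for the lists therefore cannot be read from them. The read depth of the libraries is unknown from the peak lists.

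The order of promoter signals was Chro, Cp190, CTCF, BEAF-32 and su(Hw), with 99.4%, 97.0%, 81.7%, 44.4% and 10.8% of bound protein-coding genes below them. Chro ranked above Cp190 and Cp190 above CTCF in both replicates. By the peak of highest pooled signal BEAF-32 ranked below CTCF in both, at 4683 and 3888 against 2589 and 508, and su(Hw) below BEAF-32, at 7407 and 5136. The median of the 5 promoter signals was 448.0, against 267.8 over all bound protein-coding genes, and with 5 values of this spread nothing particular to the list can be read from it.

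**Figure D4:**
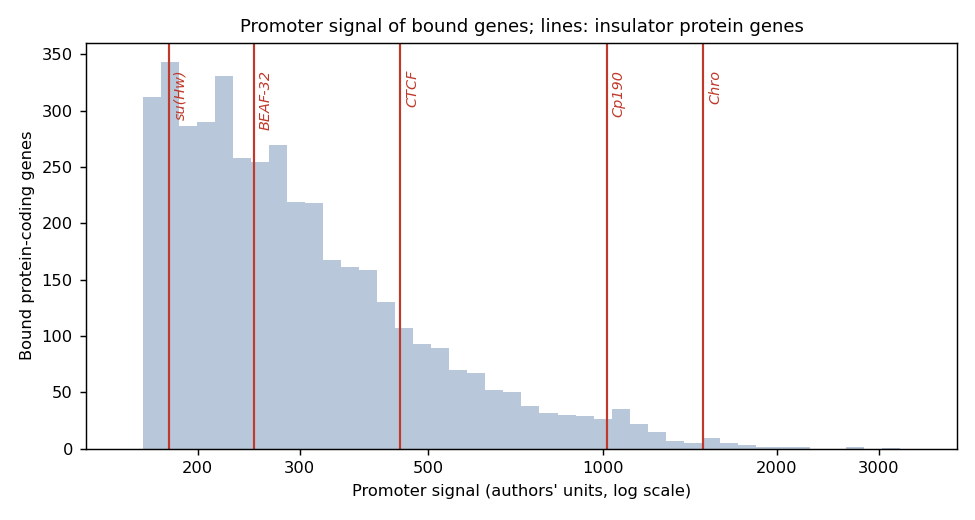
Number of bound protein-coding genes (vertical axis) by promoter signal (horizontal axis, authors' units, log scale), with red lines at the 5 insulator genes that were called bound. The lines run from su(Hw) at 178.4, near the lower end, to Chro at 1491, in the upper tail.

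The windows of 201 bp around the 16 summits were searched for 6 motifs on both strands. GATA sites were in 5 windows (31.2%, against 47.7% of all thresholded windows and 40.6% of promoter windows), namely all 3 of CTCF, the coding-exon window of mod(mdg4) and that of the Ibf1 flank. CGATA was in 7 windows (43.8%, against 38.0% of all and 39.0% of promoter windows), including 1 match at Chro, 1 at the inner BEAF-32 summit and 3 at the Ibf1 flank. A DRE was found at CTCF alone (6.25% of the 16 windows, against 3.32% of all and 5.18% of promoter windows). GAGAG was in the 2 windows of mod(mdg4) near its start, against 30.6% of all. The core of CTCF sites (AGGNGGC) was in none of the 16 windows and in 6.56% of all. The core of su(Hw) sites (TGCATA) was in 1, the internal promoter window of mod(mdg4), against 10.1% of all. A match to such short letters does not show that a factor binds there, and its absence from these windows says nothing about the factor. The G and C share of the windows ran from 22.89% at Cp190 and 28.36% at the internal mod(mdg4) promoter to 52.24% at Rrp4.

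Other genes of insulator and domain architecture were divided as well. Of 23 protein-coding genes listed from the field, with earlier results of these data known, 12 had bound promoters (52.2%) and 11 did not. The backgrounds were 26.1% of all genes and 30.1% of protein-coding genes. Of the 23, 17 had a candidate near a start, and 70.6% of these 17 were called bound. Among all genes with such a candidate the share was 48.2%. No test of this list was made either, and nothing particular to it is read from these shares. The strongest was Dref, which encodes the factor that reads the DRE, with a signal of 1135, rank 74 in the pooled list and ranks of 96 and 70 in replicates 2 and 3. Trl, the gene of GAGA factor, followed with 633.7 (ranks 438, 616 and 390), and then e(y)2, which encodes a partner of su(Hw), with 275.1 (ranks 2970, 2526 and 4086). The median of the 12 promoter signals was 245.9, below that of all bound protein-coding genes.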

How the data were processed

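The authors deposited candidate peaks for each replicate and for the pooled replicates (30000 lines each) and a thresholded list of 7025 lines, on build dm6 per the file listings. The thresholded lines are the pooled lines of highest signal. For the peak caller and the aligner no name or version is given in the sources used. In the deposited lines stand the interval, the signal as the authors scaled it, a −log10 q value and a summit offset, and 2 thresholded summits past their interval were set to its last base. The signal ranks peaks within a list only. The q value was not used to select peaks.

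Summits were annotated with Ensembl release 115 (BDGP6.54) in Python 3.11.15 and pandas 2.3.3, leaving out transposable elements and entries with no gene identifier. A replicate's rank is that of its candidate nearest to a summit, within 100 bp. No test was made, because there is 1 group. The annotation code was tested on simulated data against a slower version of itself. RefSeq spans and sequences come from the same assembly.

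Named genes are the 10 listed genes, any gene with a start within 500 bp of their promoter summits or whose body holds one of their summits (read here as thresholded summits), the 3 bound genes nearest to the strongest in the sum of absolute log10 rank differences over the pooled list and both replicates, and, of 23 further genes, the 3 of highest promoter signal and all unbound ones if 5 or fewer. Among the bound genes nearest to the strongest, any that shared its promoter peak was left out. Polr2I and Dcp-1, near candidates, were named after their values were seen. Of the 23 symbols 2 were matched by synonym. The genes and lists were chosen with earlier results of these data known. Protein features that had been planned are not analysed here.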

Additional observations from a re-analysis of the deposited data

How the results depend on the processing

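The 5 bound promoters became 3 with the upper part of the list by signal, split at its middle rank (CTCF, Cp190 and Chro) and 2 in the 1000 strongest peaks (Cp190 and Chro). The 8 genes with a thresholded summit became 5 and 3 under these settings, and the 16 summits became 10 and 4. Counting a summit only for its nearest start left 8 summits. With promoters of 1000 bp the promoter share of the summits rose from 81.25% to 93.75%. All other alternatives run kept each count within 1.5 times its value.

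The bound genes themselves changed more. With replicate 2 alone 5 genes were bound, with pita and without su(Hw), and with replicate 3 alone 4, without su(Hw). Within 200 bp su(Hw) dropped out. Within 1000 bp, or with any base of the peak, mod(mdg4) was added, and with canonical starts Cp190 dropped out. CTCF, Cp190, BEAF-32 and Chro were bound with either replicate alone. With 1 replicate alone 15 summits were assigned in each case, to 8 genes with replicate 3 and 7 with replicate 2, and 80.0% and 86.67% of them lay in promoters. The use of RefSeq spans was chosen after seeing the data. No paired analysis was possible because there is only 1 group. The read depth is unknown, so counting error of the signal cannot be given.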
